A study of Homo sapiens with 6 samples.

Results

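The genes described here are 10 enzymes and regulators of polyamine synthesis and breakdown, chosen by symbol: ODC1, AZIN1, OAZ1, OAZ2, AMD1, SRM, SMS, SAT1, SMOX and PAOX. All 10 were found among the 20036 genes of the deposited table, and 9 of them were among the 12292 genes with enough counts to test. The cells were PANC-1, a human line grown from a pancreatic ductal carcinoma. RNA-seq covered 3 libraries of cells given a lentivirus that knocks down SHMT2 and 3 libraries of control cells given a null virus. SHMT2 is the mitochondrial serine hydroxymethyltransferase. The sources used here do not give the hairpin sequence, the number of hairpins or the time after virus delivery. Nor do they say whether the libraries of a group came from separate cultures, and every p-value therefore rests on a spread between libraries that may be technical. RNA of whole cultures was measured, so fewer cells expressing a gene and less RNA of it per cell cannot be told apart.

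Polyamines are small positively charged molecules that bind nucleic acids and are needed for growth. Ornithine decarboxylase, ODC1, makes putrescine, to which SRM and then SMS add aminopropyl groups to give spermidine and spermine, using decarboxylated S-adenosylmethionine from AMD1. The antizymes OAZ1 and OAZ2 bind ODC1 protein and send it to the proteasome, and AZIN1, an ODC1-like protein without decarboxylase activity, holds antizyme away from it. SAT1 acetylates spermidine and spermine for export or for oxidation by PAOX, while SMOX oxidises spermine directly. Much of this control acts on protein, which RNA levels do not show.

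SHMT2 had 139, 56 and 101 counts in knockdown replicates 1, 2 and 3, against 2113, 2284 and 2417 in control replicates 1, 2 and 3 (log2 fold change -4.80, SE 0.23, adjusted p = 1.04e-05 in edgeR). Library totals ran from 15405884 to 19075734 counts. In each group 1 library stood apart. Knockdown replicate 2 had a chi-square per gene of 70.66 and 72.34 against the other knockdown libraries and control replicate 1 had 24.64 and 29.43 against the other controls, where the remaining pair of each group gave 2.40 and 2.04. Mitochondrially encoded genes took 10.42% of the counts of knockdown replicate 2 and 4.72% to 6.86% in the other 5 libraries. Cytosolic ribosomal protein genes took 1.80% there and 3.25% and 3.43% in the other knockdown libraries, against 3.10% in control replicate 1 and 4.28% and 4.44% in the other controls. Of 8 ductal epithelial markers, KRT8 and KRT18 were abundant in every library, with at least 305 CPM (counts scaled to library size with edgeR's TMM factors), KRT7 lay between 0.855 and 1.99 CPM, and KRT19 had 900 to 1523 counts in knockdown libraries, against 0 to 4 in controls. Of these 8 markers 4 were called higher (KRT8, KRT19, CDH1 and MUC1) and 2 lower, EPCAM to 38.4% and SOX9 to 76.1% of control. Their sum, mostly KRT8, was 1990 to 2410 CPM in knockdown libraries and 1430 to 1770 CPM in controls. Summed endothelial markers lay at 5.81 to 7.25 CPM in knockdown and 0.44 to 0.601 CPM in control libraries, and KDR, with 114, 100 and 132 counts in knockdown libraries, against 4 in each control, was the only 1 of 4 tested. Summed immune markers lay at 2.26 to 3.11 CPM in knockdown and 0.801 to 1.83 CPM in control libraries, where CD14, the only 1 of 6 tested, was called higher and LYZ was at 0. Summed fibroblast and stellate markers lay at 47.9 to 51.7 CPM in knockdown and 81.3 to 95.5 CPM in control libraries, with DCN at 0. Of the 2 tested there, COL1A1, which makes up most of that sum, was called lower (52.9% of control) and COL3A1 higher (2.15-fold). The 4 acinar markers had no count, and summed endocrine markers were at most 0.0993 CPM in knockdown and 0.379 CPM in control libraries, with INS and SST at 0. The part of these differences in the results that follow was not tested.

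The first 2 enzymes that build polyamines, ODC1 and SRM, were the members with the largest falls, each to below 50% of control, and SAT1, which opens the breakdown route, was the only tested member called higher. Smaller falls were called for SMS and AZIN1, and AMD1, OAZ1, OAZ2 and SMOX were not called. In all, the edgeR quasi-likelihood test called 5 of 9 tested members at an adjusted p below 0.05, 1 higher and 4 lower. Over all tested genes 51.8% passed, 26.7% higher and 25.1% lower, so the share of members that passed was near the background. The same 5 were the members whose groups did not overlap, which held for 61.4% of all tested genes, 31.3% higher and 30.2% lower in knockdown. Falls of at least 2-fold were called in 2 of the 9 members and in 5.78% of all tested genes, while called rises of at least 2-fold made up 9.81% of all tested genes and no member had one. Without knockdown replicate 2 and control replicate 1 together, 2 members were called higher and 5 lower, in a fit of 2 libraries against 2 that called 4576 genes higher and 4559 lower. With all libraries, the median log2 fold change was -0.24 over the 9 members and 0.00 over all tested genes.

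**Figure D1:**
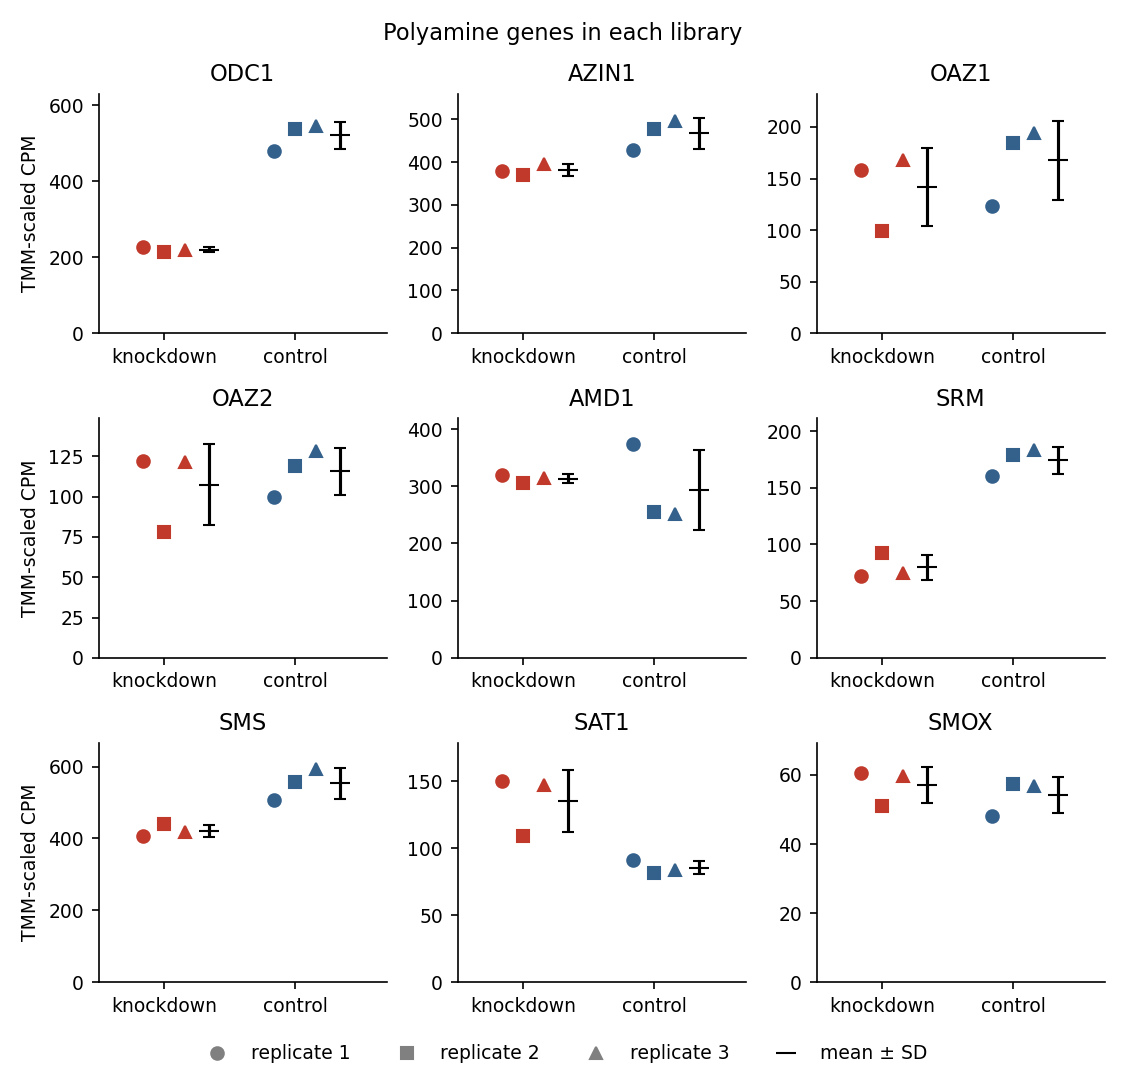
TMM-scaled CPM (vertical axes, from 0) of the 9 tested members in 3 knockdown libraries (red, left) and 3 control libraries (blue, right), with the mean ± SD of each group in black. ODC1, SRM, SMS and AZIN1 are lower and SAT1 is higher in every knockdown library than in any control library, and the other members overlap.

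ODC1 (ENSG00000115758, chromosome 2, 10439968 to 10448327 in GRCh38, minus strand), the enzyme that commits ornithine to polyamines, had 4573, 3512 and 4233 counts in knockdown replicates 1, 2 and 3, against 7618, 8052 and 8600 in the controls. This was 227, 214 and 219 CPM in knockdown libraries, against 479, 538 and 544 CPM in controls. The knockdown libraries lay close together and far below all controls. This is a log2 fold change of -1.24 (SE 0.09, adjusted p = 4.8e-05), which left 42.3% of the control level, and it stayed called in all 18 alternative analyses with values from -1.30 to -1.13. Only 3.48% of tested genes had a lower log2 fold change.

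SRM (ENSG00000116649, chromosome 1, 11054584 to 11060020, minus strand), spermidine synthase, had 72.3, 92.1 and 74.7 CPM in knockdown replicates 1, 2 and 3, against 161, 179 and 184 CPM in control replicates 1, 2 and 3. Every knockdown library was again below every control library, with replicate 2, the library that stood apart, the highest of the 3. Its level was 45.7% of control, a log2 fold change of -1.13 (SE 0.12, adjusted p = 0.000256), and was called in all 18 alternatives (-1.30 to -0.91). The 20 tested genes nearest to SRM on the chromosome, 10 on either side, had a median log2 fold change of -0.27, with 8 called lower and the other 12 not called. For ODC1 that median was 0.11, with 6 higher and 5 lower, and for AZIN1, AMD1, SMS, SMOX and OAZ2 it lay between -0.04 (OAZ2) and 0.20 (AZIN1).

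RefSeq promoter windows (build GRCh38.p14), taken here as the 250 bases before an annotated start, were read for these members because ODC1 and SRM fell together and SAT1 moved the other way. Of the 10 members 7 had a window in the table used, and AZIN1, SMOX and PAOX had none. The E-box CACGTG, the palindromic site that MYC and related factors recognise, was present in windows of ODC1 and SRM and not in those of the other 5 members. SMS, also called lower, was one of these 5, and AZIN1, also called lower, could not be searched. It is in 6.34% of all 35116 windows. Counted per gene, 11.3% of the 9995 tested genes with a window had the E-box in at least 1 window. In ODC1 it lay before the second of 2 annotated starts, 29 bases upstream of it and inside the gene as the table gives it, and in SRM it lay 199 bases upstream of the start. The core of the amino acid response element, TGATGNAA, searched on both strands, was in no window of a member and in 3.14% of all windows. A match describes the letters only and is not evidence of binding. The windows of ODC1 (first start, chr2:10448328-10448577, minus strand), of SRM (chr1:11060019-11060268, minus strand) and of SAT1 (chrX:23782923-23783172, plus strand) are shown 5′ to 3′ with E-boxes in capitals, and for the second ODC1 start the 30 bases around the E-box (chr2:10448024-10448053, minus strand) are given.
ODC1 first start: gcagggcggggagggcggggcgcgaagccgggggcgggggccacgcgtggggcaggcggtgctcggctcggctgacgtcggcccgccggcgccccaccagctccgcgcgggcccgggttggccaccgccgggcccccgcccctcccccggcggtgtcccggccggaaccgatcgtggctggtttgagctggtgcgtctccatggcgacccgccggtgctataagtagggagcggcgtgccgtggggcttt
ODC1 second start: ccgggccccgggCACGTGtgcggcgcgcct
SRM: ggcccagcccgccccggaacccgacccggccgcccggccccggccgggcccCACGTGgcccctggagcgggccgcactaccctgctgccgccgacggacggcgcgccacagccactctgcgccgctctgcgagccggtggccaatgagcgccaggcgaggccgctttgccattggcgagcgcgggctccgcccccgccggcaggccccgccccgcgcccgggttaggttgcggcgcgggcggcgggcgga
SAT1: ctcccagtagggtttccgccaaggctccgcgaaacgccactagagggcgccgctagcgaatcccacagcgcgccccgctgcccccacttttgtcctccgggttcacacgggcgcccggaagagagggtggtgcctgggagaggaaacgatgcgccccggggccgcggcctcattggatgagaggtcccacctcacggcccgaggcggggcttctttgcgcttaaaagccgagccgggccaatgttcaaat
The GC content was 78.8% in the first ODC1 window, 82.4% in the second, which holds the E-box, 82.0% in that of SRM and 66.4% in that of SAT1. The median over all windows was 58.0%, and the motif shares given above were not matched for GC content.

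SMS (ENSG00000102172, chromosome X, 21940709 to 21994837, plus strand), spermine synthase, had 406, 440 and 417 CPM in knockdown libraries, against 508, 558 and 594 CPM in controls. The groups did not overlap, but the fall was small (log2 fold change -0.39, SE 0.09, adjusted p = 0.00828). The call was lost when the trend of fold change with gene length was put into the edgeR model (-0.19, adjusted p = 0.119). Gene length alone accounted for 2.5% of the variance of log2 fold change.

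AMD1 (ENSG00000123505, chromosome 6, 110874770 to 110898879, plus strand), which supplies the aminopropyl donor, had 320, 305 and 315 CPM in knockdown replicates 1, 2 and 3, against 373, 255 and 251 CPM in control replicates 1, 2 and 3. Control replicate 1, one of the libraries that stood apart, was above all knockdown libraries and the other controls were below them. With all libraries there was no call (log2 fold change 0.10, SE 0.16, adjusted p = 0.633). Without control replicate 1 AMD1 was called higher in edgeR at 0.30 (SE 0.07, adjusted p = 0.0119), and without control replicate 2 or 3 the value was -0.00 or -0.01. GENCODE 29 names 4 pseudogenes of AMD1 and 2 of SRM, and the sources used here do not say how reads matching such copies were counted.

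**Figure D2:**
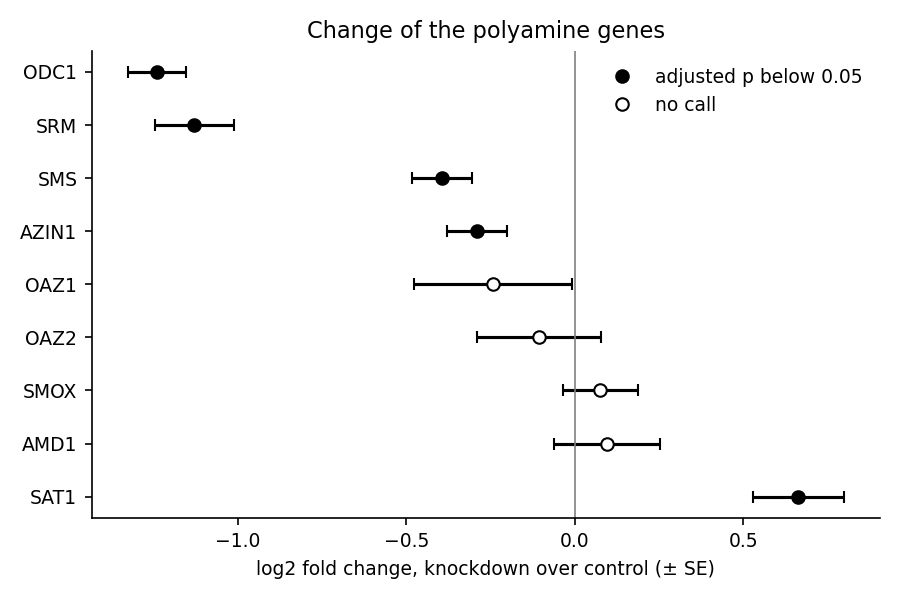
Log2 fold change of knockdown over control with its standard error (horizontal axis) for the 9 tested members, ordered from lowest to highest; filled points have an adjusted p below 0.05 in edgeR. ODC1 (-1.24) and SRM (-1.13) lie apart from SMS (-0.39) and AZIN1 (-0.29), and SAT1 (0.66) is the only filled point above 0.

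The regulators of ODC1 protein had log2 fold changes nearer to 0 than that of ODC1. AZIN1 (ENSG00000155096, chromosome 8, 102826111 to 102893864, minus strand) had 380, 369 and 396 CPM in knockdown libraries, against 427, 477 and 497 CPM in controls. The groups did not overlap, with a log2 fold change of -0.29 (SE 0.09, adjusted p = 0.0274). This call was lost without knockdown replicate 1 or 3 or control replicate 2 or 3 (adjusted p from 0.0586 to 0.116), with library size alone as the scaling (0.114) and by limma on log2(FPKM + 1) (0.121). An antisense gene, AZIN1-AS1, covers 5.4% of its exon bases, and the strand setting of the counting is not given.

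OAZ1 (ENSG00000104904, chromosome 19, 2269509 to 2273490, plus strand) had 159, 98.7 and 168 CPM in knockdown replicates 1, 2 and 3, against 124, 185 and 194 CPM in control replicates 1, 2 and 3. OAZ2 (ENSG00000180304, chromosome 15, 64687573 to 64703281, minus strand) had 122, 78.3 and 121 CPM in knockdown replicates, against 99.7, 119 and 128 CPM in control replicates. For both antizymes the lowest library of each group was the one that stood apart, and the groups overlapped. Neither was called, with log2 fold changes of -0.24 (SE 0.23, adjusted p = 0.414) for OAZ1 and -0.11 (SE 0.18, adjusted p = 0.652) for OAZ2. Without knockdown replicate 2 and control replicate 1 together, OAZ1 was called lower in edgeR at -0.21 (SE 0.04, adjusted p = 2.61e-06). That fit keeps only the most alike pair of each group (chi-square per gene 2.40 in knockdown and 2.04 in control). Its p-value leaves out the spread that the libraries standing apart add, and it called 4576 genes higher and 4559 lower. Genes on the opposite strand cover 6.9% of the exon bases of OAZ1 and 7.2% of those of OAZ2, and 6.4% of those of OAZ1 lie in another gene on its strand. The 20 genes around OAZ1 had a median log2 fold change of -0.48, with 1 called higher and 7 lower.

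SAT1 (ENSG00000130066, chromosome X, 23783173 to 23786210, plus strand), spermidine/spermine acetyltransferase, had 3029, 1787 and 2852 counts in knockdown replicates 1, 2 and 3, against 1449, 1222 and 1333 in control replicates 1, 2 and 3. Scaled, these were 150, 109 and 148 CPM in knockdown libraries, against 91.2, 81.6 and 84.3 CPM in controls. All knockdown libraries were above all controls, and knockdown replicate 2 was the lowest of its group. SAT1 rose 1.58-fold (log2 fold change 0.66, SE 0.13, adjusted p = 0.00485), a call made in all 18 alternatives with values from 0.58 to 0.85. The 20 genes around SAT1 had a median of 0.13, with 8 higher and 4 lower. SMS and SAT1 lie near each other on chromosome X, and each was among the 20 genes around the other.

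SMOX (ENSG00000088826, chromosome 20, 4120980 to 4187747, plus strand), spermine oxidase, had 60.5, 51.0 and 59.6 CPM in knockdown libraries, against 48.2, 57.4 and 56.9 CPM in controls. The groups overlapped and there was no call (log2 fold change 0.08, SE 0.11, adjusted p = 0.598). PAOX (ENSG00000148832, chromosome 10, 133379261 to 133391694, plus strand), the oxidase of acetylated polyamines, had 2, 1 and 2 counts in knockdown replicates and 0, 2 and 3 in control replicates. It was not tested, and no difference was detectable at this depth.

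Because genes differ in length, levels were compared between members in the deposited FPKM, which divide the counts by the table's gene length and by the library total. SMS had the highest FPKM of the members in both groups, at 214 ± 3.20 FPKM in knockdown and 265 ± 19.0 FPKM in control libraries (mean ± SD, n = 3). ODC1 came next, at 68.6 ± 4.68 FPKM in knockdown and 153 ± 9.69 FPKM in control libraries. This order depends on the gene lengths of the table, 2026 bases for SMS and 3307 for ODC1. In CPM, not divided by length, controls averaged 553 for SMS and 520 for ODC1. Knockdown libraries averaged 421 CPM for SMS, 382 CPM for AZIN1 and 220 CPM for ODC1. In controls ODC1 stood clear of SRM (89.4 ± 5.69 FPKM), and SRM clear of AZIN1 (74.0 ± 5.24 FPKM). In knockdown libraries ODC1 overlapped AZIN1 (64.2 ± 4.78 FPKM), AZIN1 overlapped SAT1 (56.6 ± 11.8 FPKM), and SRM (43.2 ± 3.87 FPKM) overlapped SAT1 and OAZ1 (42.8 ± 12.8 FPKM). SAT1 ranked 4 of 10 in knockdown libraries and 6 of 10 in controls, where it averaged 33.6 ± 2.08 FPKM and overlapped AMD1. PAOX was last in both, with no library above 0.0815 FPKM. Summed over the 10 members, the FPKM were 574, 509 and 582 in knockdown libraries, against 674, 736 and 760 in controls.

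**Figure D3:**
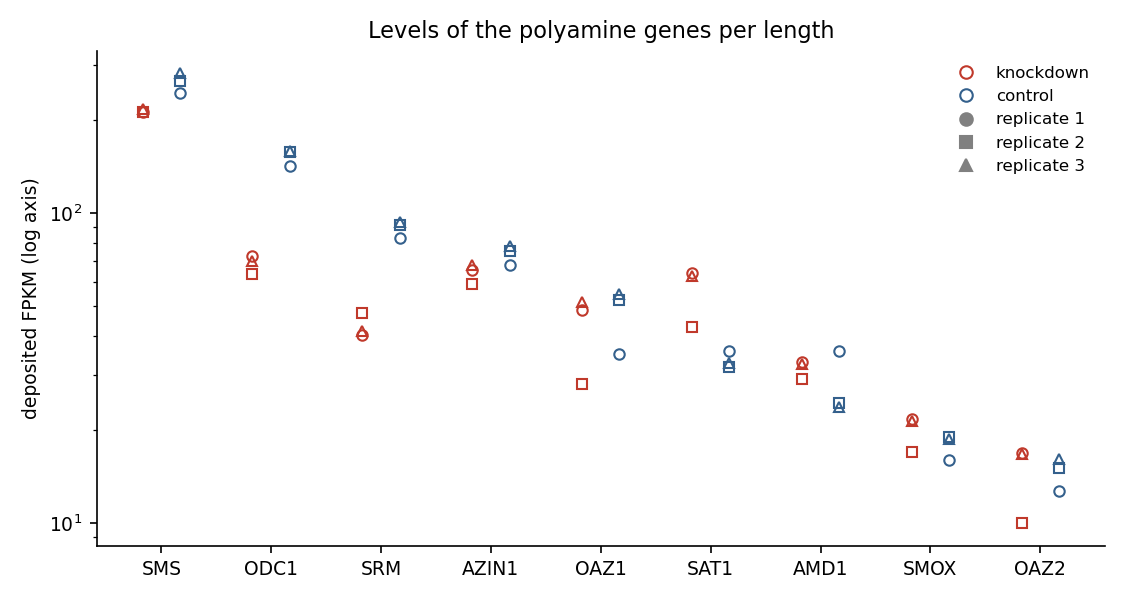
Deposited FPKM (logarithmic vertical axis) of the 9 tested members in each knockdown library (red, left of each pair) and control library (blue, right), ordered by the control mean; PAOX, with a value of 0 in 1 library, is left out. SMS lies above all others in both groups, and the control gap between ODC1 and AZIN1 is absent in the knockdown libraries.

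Ratios within a library do not depend on its scaling. The FPKM ratio of ODC1 to AZIN1 was 1.11, 1.08 and 1.02 in knockdown libraries, against 2.08, 2.09 and 2.03 in controls. That of SRM to SMS was 0.191, 0.224 and 0.192 in knockdown libraries, against 0.338, 0.343 and 0.331 in controls. Both sets were apart without overlap, with log2 differences of -0.95 and -0.74, and the 2-sided exact permutation test gave its smallest possible p of 0.1 for each (0.15 adjusted over 3 ratios). The ratio of OAZ1 to OAZ2 was 2.90, 2.81 and 3.09 in knockdown libraries, against 2.77, 3.47 and 3.39 in controls, which overlap (log2 difference -0.12, exact permutation p = 0.4, 0.4 adjusted). The ratio of SMOX to PAOX could not be formed, since PAOX had a 0.

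**Figure D4:**
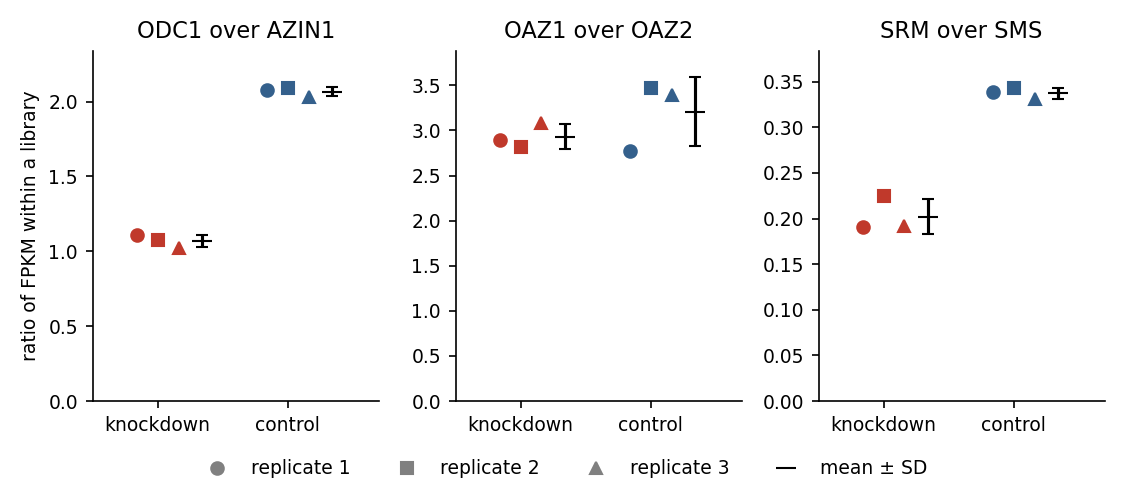
Ratio of FPKM of paired members within each library (vertical axes, from 0) in knockdown (red, left) and control libraries (blue, right), with the group mean ± SD in black. The ratios of ODC1 to AZIN1 and of SRM to SMS are lower in every knockdown library, and those of OAZ1 to OAZ2 overlap.

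Genes around the pathway were read from lists chosen for their roles. Among other regulators and enzymes of acetylated polyamines, 1 of 5 tested genes was called higher and 1 lower, 40.0% in all, against 51.8% of all tested genes. MYC, a transcription factor for which ODC1 is a textbook target gene, had 66.0, 75.5 and 64.3 CPM in knockdown libraries, against 117, 128 and 131 CPM in controls. It was lower in every knockdown library (log2 fold change -0.87, SE 0.10, adjusted p = 0.000357). Whether this has a part in the falls of ODC1 and SRM was not tested. OAZ3, the antizyme known mainly from testis, was called higher from low counts (24, 25 and 19 in knockdown libraries, against 13, 6 and 9 in controls; log2 fold change 1.02, SE 0.34, adjusted p = 0.036), a call lost without any one of knockdown replicates 1 and 2 and control replicates 2 and 3 (adjusted p from 0.0822 to 0.125), with no filter on low counts (0.0517) and in the DESeq2 test (0.0544). Other genes on its own strand cover 9.2% of its exon bases and genes on the opposite strand 19.8%, so that its level is uncertain.

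Spermidine is also the donor for hypusine, a modified lysine found in the translation factor EIF5A. Of the 5 tested hypusination genes, 3 were called lower and the other 2 were not called, with a list median of -0.72. That is 60.0% called, near the 51.8% of all tested genes, of which 25.1% were called lower. DOHH, the hydroxylase that completes hypusine, averaged 6.48 ± 1.02 CPM in knockdown and 19.0 ± 2.05 CPM in control libraries (SD, n = 3), which differ by -1.55 on the log2 scale (SE 0.16, adjusted p = 0.000226). EIF5A had 172, 102 and 210 CPM in knockdown replicates 1, 2 and 3, against 224, 351 and 398 CPM in control replicates 1, 2 and 3, and its lowest library in each group was the one that stood apart. Its log2 fold change was -1.01 (SE 0.29, adjusted p = 0.0215), and the call was lost without control replicate 2 or 3 (adjusted p of 0.0653 and 0.0716). EIF5AL1, an EIF5A-like gene that can share its reads, changed by -0.72 (SE 0.19, adjusted p = 0.0141), and both levels are uncertain for that reason; its call was lost without knockdown replicate 1 or control replicate 2 or 3 (0.0509 to 0.053).

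Of 12 genes tied to polyamine transport, 7 were tested, and 6 of these were called lower, with a list median of -0.48. The share called was 85.7%, all of it lower, against 51.8% of all tested genes called and 25.1% called lower. The list joins genes of uptake, vesicles and lysosomal export, so its count gives no direction of transport. GPC1, a heparan sulfate proteoglycan linked to polyamine uptake, averaged 33.5 ± 0.95 CPM in knockdown and 88.3 ± 2.25 CPM in control libraries (log2 fold change -1.40, SE 0.08, adjusted p = 2.22e-05). CAV1, the coat protein of caveolae, fell by 0.48 on the log2 scale to 511 ± 13.2 CPM, against 713 ± 16.6 CPM in controls (adjusted p = 0.00166). SLC18B1, a vesicular polyamine transporter, fell by 0.97 (adjusted p = 0.0033) and ATP13A2, the lysosomal polyamine exporter, by 0.44 (adjusted p = 0.00815). The related ATPase ATP13A3, named after its value was seen, averaged 456 ± 15.7 CPM in knockdown and 457 ± 66.2 CPM in control libraries with no call (adjusted p = 0.987). Its control replicate 1 was at 532.9 CPM, above the knockdown libraries at 464.9, 437.5 and 464.5 CPM. Control replicates 2 and 3 were below them, at 422.0 and 414.6 CPM. With the gene length trend in the model, all 7 tested transport genes, ATP13A3 among them, were called lower. Without knockdown replicate 2 and control replicate 1 together, 1 transport gene was called higher and 6 lower.

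Of 11 tested genes of ornithine and arginine supply, 7 were called lower and 1 higher (median -0.57), 72.7% in all, where 25.1% of all tested genes were called lower and 26.7% higher. AGMAT, annotated as agmatinase, averaged 1.44 ± 0.292 CPM in knockdown and 7.29 ± 2.70 CPM in control libraries (log2 fold change -2.35, SE 0.33, adjusted p = 0.00088). GATM, which releases ornithine while making guanidinoacetate from arginine, averaged 3.73 ± 0.0907 CPM in knockdown and 13.7 ± 1.30 CPM in control libraries (-1.88, SE 0.14, adjusted p = 5.4e-05). ASS1, argininosuccinate synthase, averaged 6.32 ± 0.599 CPM in knockdown and 12.5 ± 0.728 CPM in control libraries (-0.99, SE 0.13, adjusted p = 0.000733). GENCODE 29 names 11 pseudogenes of ASS1. The cationic amino acid carrier SLC7A2 was the gene called higher, with 126, 127 and 178 counts in knockdown libraries, against 0, 0 and 2 in controls. The summed counts differ 180-fold after scaling, with an exact 95% interval from 49.6 to 1490 that covers counting error only.

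In the list of S-adenosylmethionine supply and methylthioadenosine salvage, 2 of 10 tested genes were called higher and 3 lower (median -0.17), and the 50% called was near the 51.8% of all tested genes. MAT2A, which makes S-adenosylmethionine, averaged 739 ± 8.10 CPM in knockdown and 455 ± 16.6 CPM in control libraries, a rise of 0.70 on the log2 scale (SE 0.08, adjusted p = 0.000331). ENOPH1, a salvage enzyme, fell by 0.79 (SE 0.14, adjusted p = 0.00276). The aminotransferase GOT1 changed by -0.47 (SE 0.10, adjusted p = 0.00575). Genes on the opposite strand cover 12.4% of the exon bases of MAT2A and 19.3% of those of GOT1. AHCY, which clears S-adenosylhomocysteine, changed by -0.45 (SE 0.12, adjusted p = 0.0137), and its call was lost without control replicate 2 or 3 (adjusted p of 0.0576 and 0.0569).

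**Figure D5:**
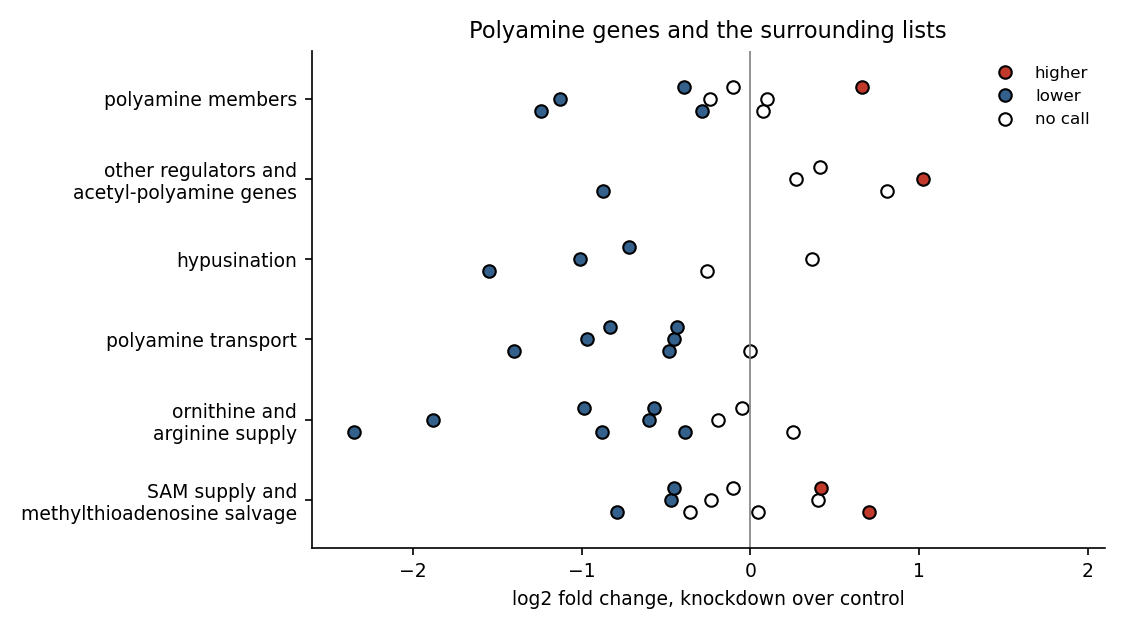
Log2 fold change of knockdown over control (horizontal axis) for each tested gene of the polyamine members and of the 5 surrounding lists, red where called higher, blue where called lower and white where not called in edgeR. SLC7A2 is left out because its controls hold 2 counts in all; the transport list has 6 genes called lower of 7, and MAT2A (0.70) is the highest point of the bottom row.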

How the data were processed

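Groups were read from the 6 library titles. RNA was extracted with TRIzol and a NEBNext Ultra II kit was used for the libraries, per the labels' protocols. The authors' deposited table holds counts of reads for each gene, as whole numbers, per the file headers. The deposited FPKM equal those counts divided by the table's gene length and by the library total (ratio 1.0 for every value above 0). The sources used here do not state the aligner, counter, build, annotation or strand setting. Of 19852 identifiers found in GENCODE 29, 79.0% share a GRCh38 start or end with it, so coordinates are printed as GRCh38, as the table gives them.

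The test was edgeR 4.0.16 in R 4.3.3 (filterByExpr, TMM factors, quasi-likelihood test, no covariates), and p-values were adjusted by Benjamini-Hochberg over all 12292 tested genes, with a call below 0.05. Standard errors were derived from each fold change and its F statistic. The procedure was checked on counts simulated from its own fit, in which few genes changed and no library stood apart. That check does not give the error rate in these data. Ratios were tested with exact permutation in scipy 1.17.1. Motifs were searched on both strands. Alternatives used other scalings, filters, thresholds and tests (DESeq2 1.42.0, limma 3.58.1), a gene length trend (mgcv 1.9.3), a replicate block and left-out libraries.

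The members, lists and tests were chosen with earlier results of these data known. Named genes are the 10 members, SHMT2 and up to 4 called genes per list by adjusted p. No table of proteins was used, so the planned comparison of protein sequences was not made.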

Additional observations from a re-analysis of the deposited data

How the results depend on the processing

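ODC1, SRM and SAT1 kept their direction and call in all 18 alternatives. AZIN1 was called in 10 of 18 and SMS in 17. Reversals were seen for uncalled members: AMD1 was -0.06 with the gene length trend. With 1 library left out, AMD1 ranged from -0.008 to 0.304, OAZ2 from -0.212 to 0.068 and SMOX from -0.007 to 0.141, with the reversals without control replicate 2 (AMD1, -0.00) or 3 (AMD1), knockdown replicate 2 (OAZ2) and control replicate 1 (SMOX). The members called lower numbered 3 to 5 over the alternatives. The members called higher numbered 1 to 2 with 1 library left out, and 2 without the pair of libraries that stood apart (control replicate 1, knockdown replicate 2). At an adjusted p below 0.01, 2143 genes were called higher and 2023 lower. Same-numbered libraries had correlations of their deviations from the group means of -0.31, -0.28 and 0.30. Knockdown replicate 2 and control replicate 1, the libraries that stood apart, had 0.45. Deviations cancel out within each group and are dominated by the library that stood apart. These values therefore cannot show whether same-numbered libraries were paired. With the replicate number as a block, 2834 genes were called higher and 2610 lower, AZIN1 lost its call (adjusted p = 0.0729), 1 member was higher and 3 lower, the regulator list had 0 genes higher and the S-adenosylmethionine list 1. The regulator list had 2 higher with library size alone or the length trend, 0 with a mean of at least 5 CPM or an adjusted p below 0.01, and 0 higher and 2 lower with no filter. The ornithine and arginine list had 0 higher with a mean of at least 5 CPM, where SLC7A2 is not tested. At an adjusted p below 0.01, the hypusination list had 1 lower and the S-adenosylmethionine list 1 higher. Without that pair, the regulator list had 4 higher and 2 lower, the transport list 1 higher, and the S-adenosylmethionine list 4 higher and 5 lower. With 1 library left out, the regulator list ranged from 0 to 2 higher and 1 to 2 lower, hypusination from 1 to 3 lower, and the S-adenosylmethionine list from 1 to 2 higher. The ratios were recomputed in 8 settings only. Their log2 differences ranged from -0.98 to -0.92 for ODC1 over AZIN1, from -0.82 to -0.70 for SRM over SMS and from -0.23 to -0.06 for OAZ1 over OAZ2. The ranges for ODC1 over AZIN1 and OAZ1 over OAZ2 do not cover the gene length trend. With that trend the log2 fold changes were -1.129 for ODC1 and -0.315 for AZIN1, and -0.138 for OAZ1 and -0.187 for OAZ2. With 5 genes on either side, the neighbourhood medians were 0.023 for ODC1, 0.004 for OAZ2, -0.35 for SRM and 0.012 for SAT1, and with 25 genes 0.044 for ODC1, 0.32 for AZIN1, 0.12 for OAZ2, -0.20 for SRM, 0.29 for SMS, 0.26 for SAT1, -0.12 for SMOX and -0.10 for PAOX. The causes of these differences were not tested. The median of all genes shifted by at most 0.08 (log2) with another scaling. PAOX and MTAP had too few counts in these libraries to be tested, and the call of OAZ3 rests on 6 to 25 counts a library.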

Other observations

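MTAP, which returns the methylthioadenosine left by spermidine and spermine synthesis to methionine, had 2, 3 and 3 counts in knockdown libraries, against 8, 6 and 6 in controls, and was too low to test. CDKN2A and CDKN2B, its neighbours on chromosome 9, which were looked up after the MTAP counts were seen, had no count in any of the 6 libraries. GENCODE 29 names 2 pseudogenes of MTAP, and other genes on its strand cover 7.8% of its exon bases, so that its few counts are uncertain. The less abundant relatives of the members were also low or not called. AZIN2 averaged 1.98 ± 0.765 CPM in knockdown and 1.13 ± 0.28 CPM in control libraries (SD, n = 3), with no call in edgeR (adjusted p = 0.0847). SAT2 averaged 20.1 ± 5.76 CPM in knockdown and 16.6 ± 3.42 CPM in control libraries, with no call (adjusted p = 0.376). HDAC10, a deacetylase of acetylated spermidine, had 2 to 5 counts in knockdown libraries and 2 to 7 in controls. Another gene on its strand, MAPK12, covers 55.8% of its exon bases, so that its level is uncertain.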
